A study of Mus musculus with 11 samples.

Results

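The Schlafen family was described in BV2, a line of transformed microglia from the mouse, by counts of reads on genes in 11 samples. The members were the 7 genes Slfn1, Slfn2, Slfn3, Slfn4, Slfn5, Slfn8 and Slfn9, chosen by symbol and with no threshold on a measured value, out of 36529 genes listed for each sample. In one experiment, 3 samples were incubated for 5 h with 25 μg/ml of nApoE4, the amino-terminal fragment of human apolipoprotein E4 (residues 1 to 151), and 3 untreated samples, ControlA, were their controls. In a second experiment, 2 samples received nApoE3, the matching fragment of apolipoprotein E3, at the same dose for the same time, and 3 untreated samples, ControlB, were their controls. The fragments were purified proteins that carried a His tag, and they differ by a single amino acid, a cysteine in apolipoprotein E3 that is an arginine in apolipoprotein E4. All samples came from the same transformed cell line, given as of the C57BL/6 strain, and no alteration of a gene is named for these experiments. PBS is named as vehicle in the labels and conditioned media for untreated cells in the study's methods, so the fluid given to the controls is uncertain. Each fragment had controls of its own, and an effect of the fragment and an effect of the experiment therefore cannot be told apart. The study's text speaks of independent trials, but neither it nor the labels say whether the samples of a group came from separate cultures, so p-values measure the spread between these samples, which may be technical.

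Schlafen genes are a family of vertebrate genes named for an effect of their first members on T cell growth, and many of them are induced by type I interferon and by ligands of Toll-like receptors. In the mouse they fall into short proteins (group I, Slfn1 and Slfn2), intermediate proteins (group II, Slfn3 and Slfn4) and long proteins that carry a helicase-like carboxyl terminus (group III, Slfn5, Slfn8 and Slfn9). Slfn2 maintains quiescence of T cells and monocytes and protects tRNA from cleavage, and Slfn4 is known as a gene of activated myeloid cells.

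All 7 genes lie on chromosome 11 of GRCm38.p6, where 10 of the 11 Schlafen-named genes of the counts, with pseudogene and antisense partners, span 344 kb from 82942341 to 83286726. From the proximal end, the order of the members was Slfn5, Slfn9, Slfn8, Slfn2, Slfn1, Slfn4 and Slfn3, with 5 members on the plus strand and 2, Slfn9 and Slfn8, on the minus strand. The coding sequences of Slfn1 and Slfn2 hold 337 and 378 codons with the stop, those of Slfn4 and Slfn3 hold 602 and 640, and those of Slfn5, Slfn8 and Slfn9 hold 884, 910 and 910. The closest pairs were Slfn8 and Slfn9, identical at 92.7% of 2730 aligned coding bases, and Slfn3 and Slfn4, identical at 92.3% of 1785. The next closest member pair, Slfn1 and Slfn4, was identical at 75.3% of 951 bases.

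Because the reads were 75 bases long, stretches of that length that occur in another gene, on either strand, mark where a read's sequence alone could not tell its gene. In the longest transcripts of GENCODE, such stretches began at 8.81% of positions in Slfn5, 8.37% in Slfn3, 7.52% in Slfn8, 6.06% in Slfn9, 3.24% in Slfn4 and 1.70% in Slfn2, and at 0 positions in Slfn1. In Slfn5 most of them were shared with Slfn5os, an antisense gene that overlaps 559 exon bases of Slfn5 (8.84% of its exons), and Slfn5os was listed at 0 counts in all 11 samples. The strand setting of the counting was not given in the sources used here, so it is unknown whether reads from Slfn5 and its antisense partner in that overlap were told apart. In Slfn3 the most shared gene was the pseudogene Gm11427, and in Slfn8 and Slfn9 it was the pseudogene Slfn10-ps. Values for the close pairs therefore carry an uncertainty beyond the spread between samples.

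The promoters of 5 members are shown because interferon-induced genes commonly carry an interferon-stimulated response element, and members with and without its core responded to the fragments. Sequences are from RefSeq on GRCm38.p6, read 5′ to 3′ on the strand of the gene, and give the 250 bases before an annotated start, with capitals for each match to the core AAANNGAAA on either strand.
Slfn2 (chr11:83064862-83065111, plus): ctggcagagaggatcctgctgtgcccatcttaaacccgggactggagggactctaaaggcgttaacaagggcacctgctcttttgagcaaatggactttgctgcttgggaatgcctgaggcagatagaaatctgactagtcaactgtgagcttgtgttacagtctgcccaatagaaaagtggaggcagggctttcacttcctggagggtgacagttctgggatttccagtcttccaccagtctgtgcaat
Slfn4 (chr11:83174936-83175185, plus): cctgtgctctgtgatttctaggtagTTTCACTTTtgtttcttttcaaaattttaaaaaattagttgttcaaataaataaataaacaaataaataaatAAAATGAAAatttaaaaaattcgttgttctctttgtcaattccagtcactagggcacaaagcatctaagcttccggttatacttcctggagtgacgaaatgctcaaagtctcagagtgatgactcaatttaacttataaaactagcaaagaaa
Slfn5 (chr11:82951852-82952101, plus): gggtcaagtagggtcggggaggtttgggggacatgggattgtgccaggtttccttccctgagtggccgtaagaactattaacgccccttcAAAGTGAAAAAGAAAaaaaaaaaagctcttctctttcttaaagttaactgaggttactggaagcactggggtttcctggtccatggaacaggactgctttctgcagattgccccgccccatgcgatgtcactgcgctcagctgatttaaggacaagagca
Slfn8 (chr11:83020811-83021060, minus): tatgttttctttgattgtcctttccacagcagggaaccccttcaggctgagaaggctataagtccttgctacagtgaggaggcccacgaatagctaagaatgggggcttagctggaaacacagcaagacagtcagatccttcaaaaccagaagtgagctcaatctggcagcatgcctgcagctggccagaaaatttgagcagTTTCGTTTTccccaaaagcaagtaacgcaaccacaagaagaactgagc
Slfn9 (chr11:82991831-82992080, minus): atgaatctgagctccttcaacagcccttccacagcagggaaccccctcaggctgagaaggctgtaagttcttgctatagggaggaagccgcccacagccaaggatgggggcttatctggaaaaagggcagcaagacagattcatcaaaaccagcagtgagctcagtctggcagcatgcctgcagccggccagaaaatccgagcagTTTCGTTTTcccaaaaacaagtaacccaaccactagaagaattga
GENCODE places no exon in these stretches for Slfn2, Slfn4, Slfn8 and Slfn9, and 117 of the 250 bases for Slfn5 lie in exons of other Slfn5 transcripts.

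The windows searched held 250 bases before to 50 bases after each annotated start, and all 7 members had at least 1 such window. The core was present for 5 of the 7 members (Slfn1, Slfn4, Slfn5, Slfn8 and Slfn9) and in 10.6% of all 32851 promoter windows of the genome. Slfn5 held 2 overlapping matches, from position -160 to -146 relative to its start, and Slfn4 held 2 separate ones, from -225 and from -153. Slfn8 and Slfn9 shared the match TTTCGTTTT on the other strand, from -48 for the upper Slfn8 start and from -45 for Slfn9. No match was found in the windows of Slfn2 and Slfn3. Matches to the GAS pattern TTCNNNGAA and the kappa B pattern GGGANNTTC were found in the windows of none of the 7 members, against 8.30% and 3.94% of all windows. Both strands were searched, with overlaps between the motifs allowed. Only these exact patterns and the core AAANNGAAA were searched, so elements with other letters, also in Slfn2 and Slfn3, would have been missed. These matches describe letters in a window and not binding of a factor.

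**Figure D1:**
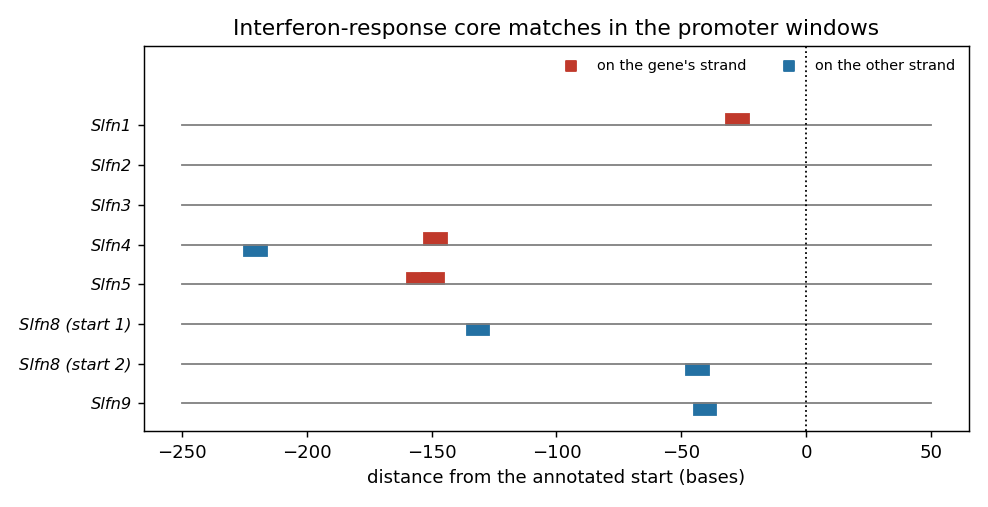
Each line is the promoter window of a member, from 250 bases before to 50 bases after its annotated start (dotted line, x axis in bases), and each block is a match to the interferon-response core on the strand of the gene (red) or on the other strand (blue). Slfn8 has 2 annotated starts whose windows overlap and hold the same match, and the lines of Slfn2 and Slfn3 are empty.

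The samples held 39732710 to 44162511 counts on genes in the nApoE4 experiment and 55809688 to 69768666 in the nApoE3 experiment, and 3 counts, taken as the floor, correspond to 0.0430 to 0.0755 CPM (counts scaled to library size) on the library totals alone, which covers counting error only. All other CPM values were also scaled with TMM factors. Correlations between replicates across genes were 0.995 to 0.999 on log CPM, a measure that would show only broad departures of a library. Of 11 markers of microglia and macrophages, 8 (ControlA and nApoE4) or 7 (ControlB and nApoE3) had a mean of at least 1 CPM, among them Itgam, Csf1r, Cd68, Adgre1, Ptprc and Tyrobp, while P2ry12, a marker of microglia in the brain, had 0 counts in every sample. The listed markers Aif1 and Cx3cr1 were also low, with group means of 0.0295 to 0.0958 and 0.120 to 0.600 CPM. Trem2, a receptor gene of microglia, was uneven in ControlA, with 2578, 112 and 62 counts in its samples. The summed level of these markers was 3076 to 3352 CPM in ControlA, 2952 to 3016 in nApoE4, 2312 to 2402 in ControlB and 2702 to 2704 in nApoE3. Of 7 T cell markers, Cd8a and Trac had 0 counts in every sample, and the summed level was 17.2 to 18.9 CPM in ControlA, 3.89 to 4.51 in nApoE4, 19.2 to 20.4 in ControlB and 8.11 to 10.4 in nApoE3, most of it from Cd28, which encodes a receptor for costimulation. Of 4 astrocyte markers, the summed level was 1.20 to 1.39 CPM in ControlA, 6.02 to 7.02 in nApoE4, 1.05 to 1.22 in ControlB and 4.36 to 4.53 in nApoE3, and it came mainly from the glutamate transporter gene Slc1a2, while Aqp4 had 0 counts in the nApoE4 experiment. The part of these shifts in the Schlafen results was not tested. Markers of neutrophils and neurons summed to at most 1.49 CPM in every sample, and those of oligodendrocytes summed to 9.28 to 25.4 CPM, with Mog at 0 counts.

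In untreated cells the family was carried by Slfn9. On the scale of CPM per kilobase of exon, which allows genes to be compared, Slfn9 stood at 4.66 ± 0.172 (SD, n = 3) in ControlA and 5.69 ± 0.424 (SD, n = 3) in ControlB and made up 72.1% and 76.6% of the summed level of the 7 genes. Slfn2 followed at 1.04 ± 0.275 and 0.815 ± 0.117, and Slfn3 at 0.681 ± 0.112 and 0.757 ± 0.0528, with ranges that overlapped in both control groups. Slfn4 was lower at 0.0657 ± 0.00699 and 0.143 ± 0.0199, Slfn5 at 0.0280 ± 0.0122 and 0.0219 ± 0.00545, and Slfn8 was at 1 count or fewer in every control sample. Slfn1 had 0 counts in all 6 control samples. Apart from Slfn2 and Slfn3, and from Slfn8 and Slfn1 in ControlA, the ranges of neighbours in this order did not overlap. By counts, with no length used, Slfn9 made up 86.1% of the family in ControlA and 87.9% in ControlB. RefSeq extends Slfn9 to 82974316, past its GENCODE end at 82978390 and over the noncoding gene 1190001M18Rik, which the counts did not list. If the counting followed RefSeq, the length used for Slfn9 may be too short and its level per kilobase too high, which was not tested.

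Treatment raised the summed level of the 7 genes on the same per kilobase scale from 6.47 ± 0.401 (SD, n = 3) to 26.6 ± 0.537 (SD, n = 3) with nApoE4 and from 7.43 ± 0.606 (SD, n = 3) to 32.8 ± 0.863 (SD, n = 2) with nApoE3. The make-up of that sum differed. With nApoE4, Slfn2 made up 72.0% and Slfn9 20.8% of the summed level, whereas with nApoE3, Slfn9 made up 48.3% and Slfn2 35.3%. By counts, with no length used, Slfn2 made up 43.0% and Slfn9 44.6% with nApoE4, and 13.9% and 68.2% with nApoE3. The place of Slfn2 against Slfn9 with nApoE4 thus depends on the lengths used. The order per kilobase with nApoE4 was Slfn2 at 19.2 ± 0.321, Slfn9 at 5.55 ± 0.167, Slfn5 at 0.887 ± 0.0790, Slfn3 at 0.727 ± 0.0299, Slfn4 at 0.237 ± 0.0458 and Slfn8 at 0.0484 ± 0.0341 (SD, n = 3), with no overlap between neighbours. The order with nApoE3 was Slfn9 at 15.8 ± 0.221, Slfn2 at 11.6 ± 0.391, Slfn4 at 2.07 ± 0.196, Slfn5 at 1.81 ± 0.178, Slfn3 at 1.36 ± 0.112 and Slfn8 at 0.113 ± 0.0175 (SD, n = 2), in which only Slfn4 and Slfn5 overlapped. The level of a gene in a bulk sample cannot separate more RNA per cell from more cells that express it.

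**Figure D2:**
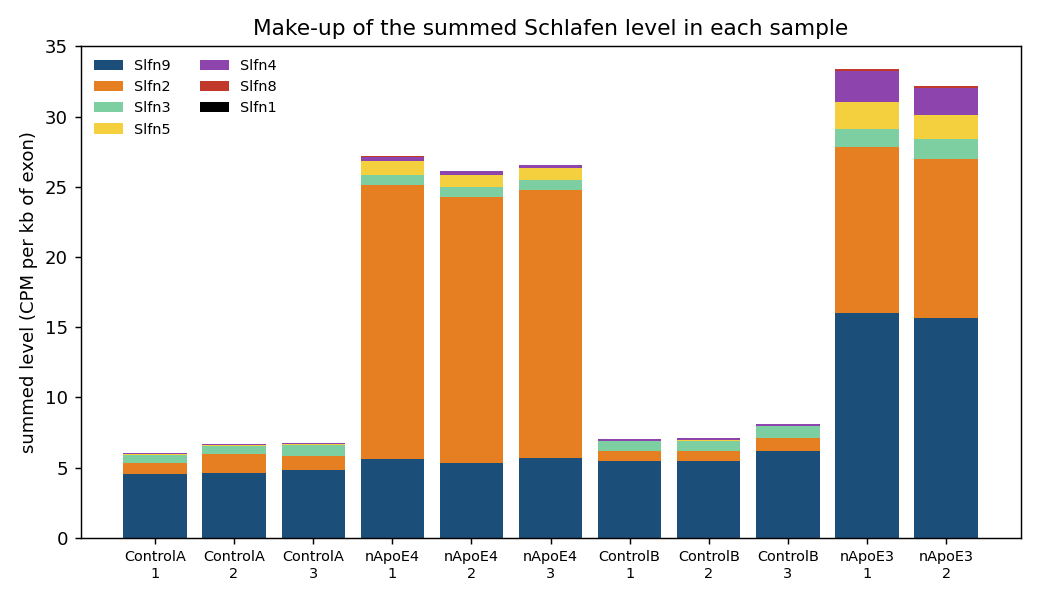
Each bar is a sample, its height the summed level of the 7 members in CPM per kilobase of exon (y axis), and colours give the part of each member. The treated samples of both experiments reach 26.6 and 32.8 on average against 6.47 and 7.43 in their controls, with Slfn2 as the largest part with nApoE4 and Slfn9 with nApoE3.

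The response to nApoE4 was tested against ControlA with the quasi-likelihood F test of edgeR, adjusted by Benjamini-Hochberg over 14240 genes. Of the 7 members, 5 held enough counts to be tested, and 4 of these rose (Slfn2, Slfn4, Slfn5 and Slfn9), 3 of them by more than 2-fold, while none fell. Over all genes tested, 28.6% were called higher and 28.6% lower, 10.2% were called higher with a fold change above 2, and the treated and control samples did not overlap for 63.6%. Slfn5 passed the filter on low counts through the treated samples, in which it had to be high, and the other 4 passed in both groups. Slfn1 and Slfn8 were not tested.

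The response to nApoE3 against ControlB was tested in the same way over 14817 genes. All 6 members that were tested rose, 5 of them by more than 2-fold (Slfn2, Slfn4, Slfn5, Slfn8 and Slfn9), against 33.1% of all genes called higher, 34.6% called lower, 9.6% called higher with a fold change above 2, and 77.6% without overlap between the groups. Slfn5 and Slfn8 passed the filter through the treated samples alone, and Slfn1 was not tested. The values of each member follow by structural group.

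Of the short members, Slfn2 had 57, 100 and 75 counts in ControlA and 1394, 1307 and 1264 in the nApoE4 samples, and 89, 76 and 89 in ControlB and 1147 and 1061 in the nApoE3 samples. Every treated sample was far above the highest control sample of its experiment. Its level rose from 1.73 ± 0.457 to 31.9 ± 0.535 CPM with nApoE4 (SD, n = 3 each), 18.5-fold, or 4.21 on the log2 scale (standard error 0.14, edgeR adjusted p = 8.89e-09). With nApoE3 it rose from 1.36 ± 0.194 (SD, n = 3) to 19.2 ± 0.651 CPM (SD, n = 2), 14.2-fold, or 3.83 on the log2 scale (standard error 0.091, edgeR adjusted p = 2.49e-12). Slfn1, the other short member, had 1 count in 1 nApoE4 sample, 1 count in 1 nApoE3 sample and 0 elsewhere, so that no expression was detectable at this depth and no fold change is given.

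Of the intermediate members, Slfn4 had 10, 13 and 12 counts in ControlA and 48, 39 and 30 with nApoE4, and 36, 33 and 37 in ControlB and 509 and 432 with nApoE3. Treated samples were above their controls in both experiments without overlap. With nApoE4 it went up from 0.261 ± 0.0277 to 0.938 ± 0.182 CPM (SD, n = 3 in both groups), by 1.84 on the log2 scale (standard error 0.26, edgeR adjusted p = 2.11e-04). With nApoE3 it rose from 0.566 ± 0.0788 (SD, n = 3) to 8.20 ± 0.775 CPM (SD, n = 2), by 3.85 on the log2 scale (standard error 0.14, edgeR adjusted p = 1.32e-10). Its coding neighbour Slfn3, which is known from differentiation of gut epithelium and T cells, moved less. It had 88, 96 and 129 counts in ControlA and 104, 108 and 96 with nApoE4, which overlapped, and 170, 159 and 156 in ControlB and 254 and 277 with nApoE3, which did not. Its log2 fold change was 0.10 with nApoE4 (95% interval -0.25 to 0.45, adjusted p = 0.62 from edgeR), and it rose by 0.84 with nApoE3 (standard error 0.12, adjusted p = 4.39e-05 from edgeR), 1.79-fold. By these estimates, the pair that shares 92.3% of its coding bases held Slfn4 above 2-fold and Slfn3 below it with both fragments. The 95% interval of Slfn3 with nApoE3, 0.58 to 1.10 on the log2 scale, included 2-fold, and the genes were not tested against each other.

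Of the long members, Slfn5, a nuclear protein gene that responds to interferon, showed the largest fold change of the tested members with each fragment. It had 4, 11 and 9 counts in ControlA and 265, 225 and 208 with nApoE4, and 8, 11 and 7 in ControlB and 714 and 603 with nApoE3. The lowest treated sample was far above the highest control sample in both experiments. Its level rose from 0.177 ± 0.0769 to 5.61 ± 0.50 CPM with nApoE4 (SD, n = 3 each), 31.0-fold, or 4.96 on the log2 scale (standard error 0.23, edgeR adjusted p = 1.03e-07). With nApoE3 it rose from 0.138 ± 0.0344 (SD, n = 3) to 11.5 ± 1.12 CPM (SD, n = 2), 81.7-fold, or 6.35 on the log2 scale (standard error 0.16, edgeR adjusted p = 4.35e-12).

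Slfn9, the neighbour of Slfn5 in the cluster, was the most abundant long member in every group. It had 1149, 1231 and 1351 counts in ControlA and 1439, 1328 and 1341 with nApoE4, and 2294, 2008 and 2077 in ControlB and 5552 and 5282 with nApoE3. In CPM, which takes account of library size, the nApoE4 samples stood at 31.9 to 33.8 and ControlA at 27.0 to 28.9 without overlap, and the nApoE3 samples at 93.5 and 95.4 were above 32.4 to 36.8 in ControlB. The rise with nApoE4 was small, 0.26 on the log2 scale (standard error 0.059, edgeR adjusted p = 0.00450) or 1.19-fold, and the rise with nApoE3 was 1.47 (standard error 0.047, adjusted p = 3.96e-11 from edgeR) or 2.78-fold.

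Slfn8, whose coding sequence shares 92.7% of its bases with Slfn9, was far less abundant. It had 1, 0 and 1 counts in ControlA and 15, 7 and 3 with nApoE4, and 1 count in each ControlB sample and 24 and 29 with nApoE3. Treated samples were above controls in both experiments, though the lowest nApoE4 sample was at the floor of 3 counts. Over summed counts the ratio was 13.5 with nApoE4 (exact 95% counting interval 3.37 to 118) and 29.1 with nApoE3 (9.43 to 146). These intervals cover counting error only and leave out the spread between samples. It was tested with nApoE3 alone, with an adjusted p of 4.33e-06 from edgeR, and the fitted 4.69 on the log2 scale (standard error 0.51) depends on the prior count because the controls were so low.

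**Figure D3:**
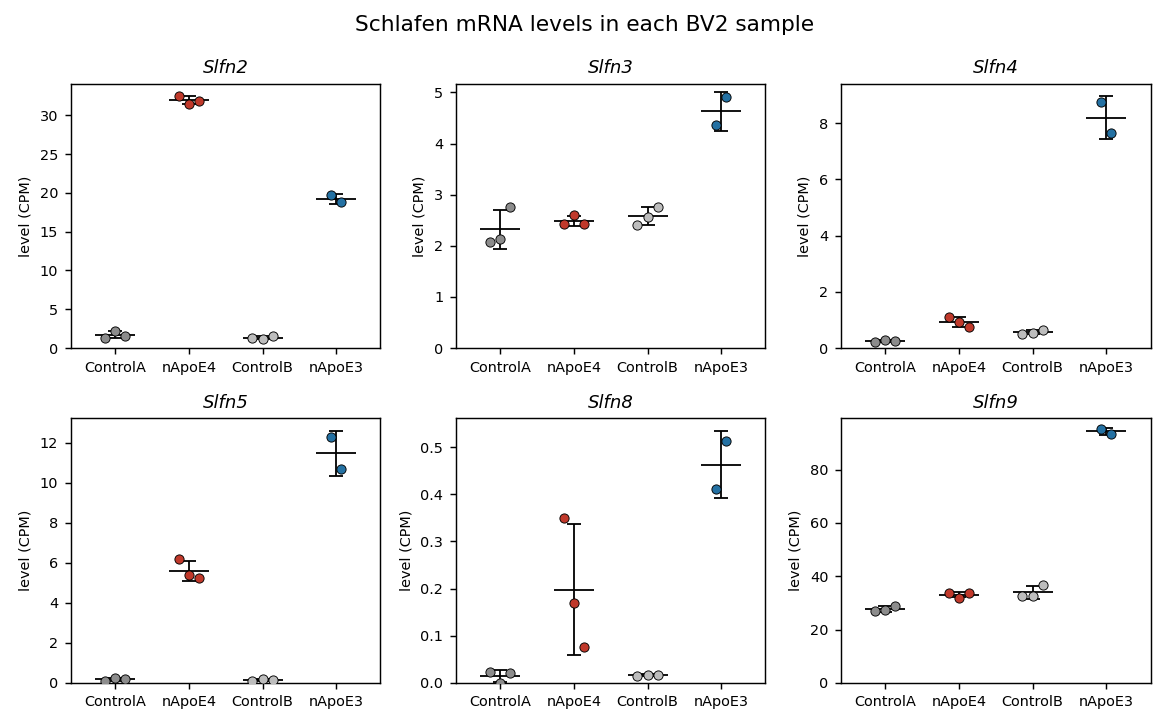
Points are single samples, with the mean and SD of each group, on a linear axis of CPM that starts at 0 and differs between panels. Slfn2, Slfn4 and Slfn5 were near the bottom of their axes in both control groups and higher in every treated sample, Slfn3 and Slfn9 stood apart from all other groups with nApoE3, and Slfn1, with at most 1 count in a sample, is not drawn.

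Whether the responses themselves differed was examined by an interaction term of edgeR in all 11 samples and 15287 genes, as the nApoE4 response minus the nApoE3 response. The common coefficient of variation between replicates was 0.084 in the nApoE4 experiment and 0.026 in the nApoE3 experiment, and this fit pooled them at 0.067. Calls in the separate experiments therefore did not rest on equal spread. Of 6 members tested, 4 had a smaller response with nApoE4 (Slfn3, Slfn4, Slfn5 and Slfn9), 3 of them by more than 2-fold, and none had a larger one, against 13.9% of all genes called lower, 14.4% called higher and 3.35% called lower with a fold change above 2. Slfn5 and Slfn8 passed the filter on low counts through the treated samples, in which they had to be high, and the other members tested passed in every group. Slfn4 differed by -2.02 on the log2 scale (standard error 0.30, adjusted p = 2.50e-04) and Slfn9 by -1.23 (standard error 0.083, adjusted p = 4.04e-07, both from edgeR).

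Slfn5 differed by -1.40 (standard error 0.38, adjusted p = 0.0152 from edgeR), a call that was lost without the second ControlA sample, at -1.11 (adjusted p = 0.0836). Slfn3 differed by -0.75 (standard error 0.19, adjusted p = 0.00981 from edgeR), a call that was lost without the second nApoE3 sample, at -0.67 (adjusted p = 0.0536), where the lone sample left was assumed to vary like the others. Slfn2 went the other way by 0.37 (standard error 0.19, 95% interval -0.042 to 0.79, adjusted p = 0.173 from edgeR), and passed the threshold without the second ControlA sample, at 0.60 (adjusted p = 0.00631). That library held 100 Slfn2 counts and 11 Slfn5 counts, the highest of ControlA for both genes. For Slfn8 the interval of the difference ran from -4.30 to 2.06, so that neither a smaller nor a larger response with nApoE4 could be detected at this depth.

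**Figure D4:**
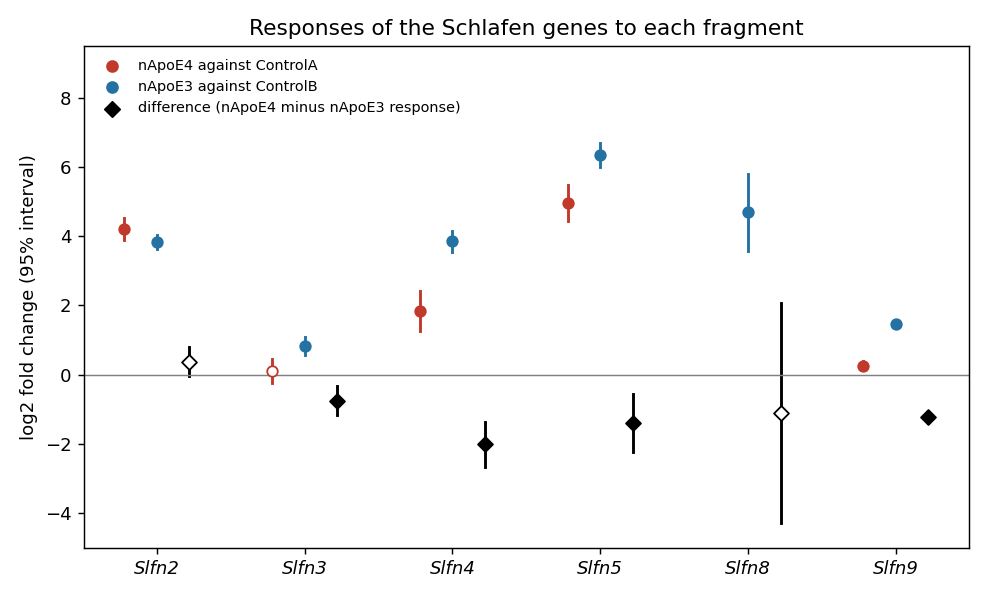
For each member that was tested, circles give the log2 fold change with nApoE4 (red) and with nApoE3 (blue) against its own controls and diamonds the difference of the responses, with 95% intervals, and open symbols missed an adjusted p under 0.05. The red and blue circles of Slfn2 lie close together, at 4.21 and 3.83, and those of Slfn4 lie farthest apart, at 1.84 and 3.85.

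Since each response is relative to its own controls, the control groups were also compared, and these samples are the same ones that enter the comparisons above. Of the 4 members tested, 2 were higher in ControlB than in ControlA, and of all 14249 genes tested 34.4% were called higher and 34.9% lower. Slfn4 was higher by 1.09 (standard error 0.23, adjusted p = 0.00300) and Slfn9 by 0.27 (standard error 0.064, adjusted p = 0.00531, both from edgeR), while Slfn2 at -0.37 (95% interval -0.86 to 0.12) and Slfn3 at 0.13 (-0.20 to 0.47) missed the threshold. For Slfn4 and Slfn9, both the untreated level and the response were thus higher in the nApoE3 experiment. The level of Slfn9 in ControlB, 33.9 ± 2.53 CPM (SD, n = 3), was near that with nApoE4 in the other experiment, 33.1 ± 0.998 CPM (SD, n = 3), a comparison across experiments that was not tested.

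Of the other Schlafen-named genes, the pseudogene Slfn10-ps, which lies between Slfn8 and Slfn2, had 3, 5 and 7 counts in ControlA and 32, 30 and 27 with nApoE4, and 1, 8 and 2 in ControlB and 5 and 21 with nApoE3. It rose with nApoE4 by 2.66 (standard error 0.31, adjusted p = 5.90e-05 from edgeR), passing the filter through the treated samples, and its groups overlapped in the nApoE3 experiment, where it was not tested. Stretches of 75 bases shared with other genes began at 11.5% of its positions, most often shared with Slfn9. Slfn14, a long Schlafen gene of the megakaryocyte and red cell lineages, had 3 counts or fewer in every sample, Slfnl1, on chromosome 4, had 4 or fewer, and Slfn5os had 0.

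The cluster's other neighbours did not show changes of the size of Slfn2 or Slfn5. Within 200000 bases of either end, 21 annotated genes outside the family were listed in the counts. With nApoE4, 15 were tested, of which 5 rose and 3 fell, with a median log2 fold change of 0.14, against 28.6% of all genes in each direction, and the largest changes were those of Taf15, which encodes an RNA-binding protein (1.06, adjusted p = 1.23e-06), and Mmp28, which encodes a matrix metalloproteinase (1.06, adjusted p = 0.0120, both from edgeR). With nApoE3, 14 were tested, of which 9 rose and 2 fell, with a median of 0.34, against 33.1% and 34.6% of all genes, and among them 1700020L24Rik rose by 0.79 (adjusted p = 0.0261 from edgeR).

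Genes of interferon signalling, the pathway best known to induce Schlafen genes, mostly rose with both fragments. Of 19 genes listed, 18 were tested in each experiment, of which 14 rose and 1 fell with nApoE4 (median log2 fold change 1.96, against 0.0013 over all genes) and 15 rose and 3 fell with nApoE3 (median 1.90, against -0.0026). Over all genes tested, 28.6% rose and as many fell with nApoE4, and 33.1% rose and 34.6% fell with nApoE3. By role, 3 of 4 receptor genes, 5 of 7 transcription factor genes and all 3 feedback inhibitor genes rose with each fragment, and 2 of 3 kinase genes rose with nApoE4 and 3 of 3 with nApoE3. Irf8, a factor of the myeloid lineage that was singled out after its values were seen, was the one gene that fell with nApoE4, by 1.44 (adjusted p = 2.46e-08), and it fell by 0.94 with nApoE3 (adjusted p = 2.74e-10, both from edgeR).

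Ifnb1, the gene of interferon beta, had 0, 2 and 2 counts in ControlA and 43, 30 and 50 with nApoE4, a ratio of 33.2 (exact 95% counting interval 12.6 to 124), and 3, 7 and 9 in ControlB and 75 and 72 with nApoE3, 3.63 higher on the log2 scale (standard error 0.34, edgeR adjusted p = 1.11e-06). The treated samples were above every control sample in both experiments. Ifnb1 passed the filter on low counts through the treated samples alone in both, and the counting interval leaves out the spread between samples. Ifng, the gene of interferon gamma, had 0 counts throughout. Irf7, a factor that amplifies interferon production, rose by 3.89 with nApoE4 (adjusted p = 1.15e-09) and by 5.33 with nApoE3 (adjusted p = 2.03e-13, both from edgeR). Irf1, a factor of the interferon gamma response, rose by 3.71 with nApoE4 (adjusted p = 4.08e-10 from edgeR), and Usp18, an inhibitor of type I interferon signalling, rose by 4.15 with nApoE3 (adjusted p = 1.71e-13 from edgeR).

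The direction of the difference between fragments varied within this list, with 4 of 18 genes higher and 7 lower in the interaction, against 14.4% and 13.9% of all genes. Irf7 (-1.44, adjusted p = 1.33e-04) and Usp18 (-1.65, adjusted p = 2.70e-06) had smaller responses with nApoE4, the direction of Slfn3, Slfn4, Slfn5 and Slfn9, and Irf1 had a larger one (1.26, adjusted p = 6.52e-07, all from edgeR). For Ifnb1 the difference was 1.32 (standard error 0.81, adjusted p = 0.255 from edgeR).

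**Figure D5:**
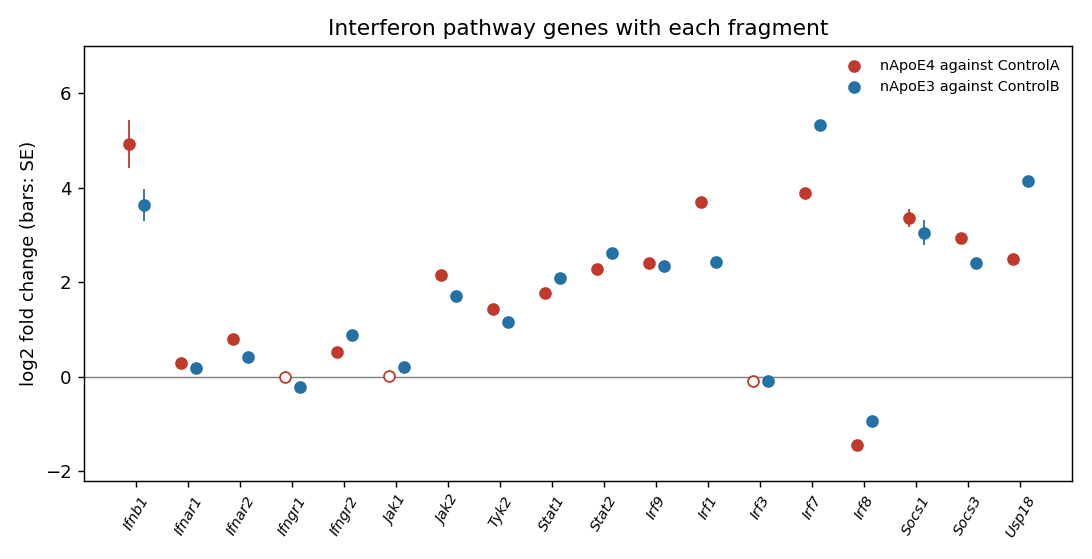
Circles give the log2 fold change of each tested gene of the interferon pathway with nApoE4 (red) and nApoE3 (blue) against its own controls, with standard errors as bars, and open circles missed an adjusted p under 0.05. Ligand, receptors, kinases, factors and inhibitors run from left to right, with Irf8 as the one gene that is called lower with both fragments.

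Slfn2 is linked to tRNA cleavage and to cell quiescence, and a list of 11 genes of these processes was examined beside it. Of 10 tested, 1 rose and 6 fell with nApoE4 (median -0.66) and 2 rose and 8 fell with nApoE3 (median -0.47). Over all genes tested, 28.6% rose and 28.6% fell with nApoE4 (median 0.0013), and 33.1% rose and 34.6% fell with nApoE3 (median -0.0026). Cdkn1a, an inhibitor of cyclin-dependent kinases, rose by 1.97 with nApoE4 (adjusted p = 1.83e-08) and by 1.99 with nApoE3 (adjusted p = 1.50e-12, both from edgeR). Cdkn1b, the other kinase inhibitor gene of the list, which was singled out after its values were seen, fell by 1.63 with nApoE4 (adjusted p = 2.03e-08) and by 1.10 with nApoE3 (adjusted p = 1.15e-09, both from edgeR). The G1 cyclin gene Ccnd1 fell by 1.70 with nApoE4 (adjusted p = 6.98e-08), and Ccne1 fell by 1.33 with nApoE3 (adjusted p = 5.78e-12, both from edgeR). Cyclin genes fell for 3 of 4 with nApoE4 and 4 of 4 with nApoE3. Mki67, the proliferation gene of the list, changed little, by 0.12 with nApoE4 (adjusted p = 0.431) and by -0.23 with nApoE3 (adjusted p = 1.42e-06, both from edgeR). Ang, which encodes the tRNA-cutting ribonuclease angiogenin, was listed at 0 counts.

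Across the 11 samples, members fell into patterns that can be described by Pearson's r of log2(CPM + 0.5), a measure in which most of the spread comes from the 4 groups and in which the samples share controls and depth. Slfn2 followed Slfn5 (r = 0.952) more than Slfn4 (0.593), Slfn9 (0.456) or Slfn3 (0.396), while Slfn9 followed Slfn4 (0.983) and Slfn3 (0.963). Among 15286 genes, those most like Slfn2 were Ncf1 (0.999), which encodes a subunit of the phagocyte NADPH oxidase, Stx11 (0.998), a syntaxin gene, and Plek (0.998), the pleckstrin gene. Those most like Slfn5 were Parp10 (0.998), an ADP-ribosyltransferase gene, Dusp16 (0.996), a phosphatase gene of MAP kinases, and Pyhin1 (0.995), an interferon-inducible gene. Those most like Slfn4 were Serpina3f (0.996), a protease inhibitor gene, Iigp1 (0.995), an interferon-inducible GTPase gene, and Tpst1 (0.994), a sulfotransferase gene. A high r did not mean like fold changes. On the log2 scale Iigp1 rose by 7.46 with nApoE4 and 5.77 with nApoE3, and Slfn4 by 1.84 and 3.85. The difference between the Iigp1 responses missed the threshold (1.93, adjusted p = 0.254 from edgeR). Slfn9 was most like Muc3 (0.988), Trim30c (0.986) and Ugcg (0.985), and Slfn3 was most like B4galt5 (0.975), Cep70 (0.965) and Slfn9 (0.963). Muc3 was low, at 0.119 CPM in ControlA, 0.250 with nApoE4, 0.208 in ControlB and 1.23 with nApoE3.

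Ncf1, most like Slfn2, rose by 1.35 with nApoE4 and by 1.12 with nApoE3 on the log2 scale, from 212 ± 11.4 to 539 ± 9.39 CPM (SD, n = 3 each) and from 208 ± 3.64 (SD, n = 3) to 454 ± 23.0 CPM (SD, n = 2). The Ncf1 responses differed by 0.22 (95% interval 0.060 to 0.38, adjusted p = 0.0404 from edgeR). Serpina3f, most like Slfn4, was at 0.188 ± 0.0432 CPM in ControlA, 0.908 ± 0.0870 with nApoE4, 0.377 ± 0.0275 in ControlB and 7.90 ± 0.485 with nApoE3. These genes were chosen for their likeness, and their values are given as a description.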

How the data were processed

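RNA of BV2 cells was sequenced by the authors as single-end reads of 75 bases. Per the labels and the study's methods, reads were trimmed with Trim Galore 0.5.0, assessed with FastQC 0.11.8, mapped to GRCm38.p6 with HISAT2 2.1.0 and counted on genes with HTSeq 0.11.0. The deposited values are raw counts per gene, without normalization, and the annotation release, strand setting and overlap mode of the counting are not given in the sources used here. Of all tallied reads, 76.0 to 77.7% fell on genes and 11.7 to 13.2% were placed at more than 1 site. These tallies were left out of library sizes, as were unaligned reads.

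Groups and replicate numbers were taken from the titles. Tests used edgeR 4.0.16 under R 4.3.3 (filterByExpr, TMM, quasi-likelihood F test, Benjamini-Hochberg adjustment over all genes tested) at an adjusted p under 0.05, also with a fold change above 2. Standard errors were derived from the F statistic. Both fragments were tested against their own controls, and the interaction was fitted over 11 samples with 4 group means. No block was used. Levels per kilobase are CPM divided by the union of GENCODE M21 exons, which may differ from the annotation counted. Protein sequences were not used here, so identity was computed between coding sequences (Biopython 1.88), with gaps left out. Alternatives were DESeq2 1.42.0, its size factors in edgeR, other filters, all 11 samples in one fit, the replicate block and leaving out each sample. The code was tested on simulated data.

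The members, lists and alternatives were chosen with earlier results of these data known. Named are all members and Schlafen-named genes, the 3 largest changes past the threshold in each list and fragment, the 2 largest among cluster neighbours, and the 3 genes most like each member that reached 1 CPM. Some genes that this rule names are not reported here.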

Additional observations from a re-analysis of the deposited data

Results flagged for a closer look

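The responses of 4 members differed between the experiments by the interaction test of edgeR. The nApoE4 response minus the nApoE3 response was -0.75 for Slfn3, -2.02 for Slfn4, -1.40 for Slfn5 and -1.23 for Slfn9 on the log2 scale, with adjusted p of 0.00981, 2.50e-04, 0.0152 and 4.04e-07. Slfn4 and Slfn9 were called in all 16 alternatives tried. Slfn3 lost the call without the second nApoE3 sample, and Slfn5 lost it without the second ControlA sample. Effects of the fragment and of the experiment cannot be told apart, and Slfn4 and Slfn9 also differed between the control groups.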

How the results depend on the processing

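No direction reversed in the alternatives tried, and all 49 counts of members called stayed within 1.5 times the value reported. The count with nApoE4 was 4 and ranged from 3 (at least 10 counts in every sample) to 5 (all 11 samples in one fit, or genes with at least 1 count, both adding Slfn8). With nApoE3 it ranged from 4 to 6, and the count for the difference between responses from 3 to 4. On leaving out each sample, the counts were 4 with nApoE4, 6 with nApoE3, 3 to 4 for the difference and 2 between the controls. Of 257 log2 fold changes under an alternative, 253 kept their side of the threshold, and the other 4 were all of the difference between responses: 3 lost the call and 1 gained it. Slfn5 lost it with the replicate block (-1.34, adjusted p = 0.113) and without ControlA replicate 2 (-1.11, adjusted p = 0.0836), Slfn3 lost it without ApoE3 replicate 2 (-0.67, adjusted p = 0.0536), and Slfn2 gained it without ControlA replicate 2 (0.60, adjusted p = 0.00631). The cause was not tested. The adjusted p of edgeR and DESeq2 ranged over these alternatives from 0.00469 to 0.113 for Slfn5, from 0.00425 to 0.0536 for Slfn3 and from 0.00631 to 0.492 for Slfn2.

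Replicate numbers are shared between treated and control samples, and the residuals of same-numbered samples correlated at -0.0988, -0.372 and -0.181 in the nApoE4 experiment and at -0.000725 and -0.0183 in the nApoE3 experiment. No positive correlation was thus seen, but so few values cannot settle whether same-numbered samples were processed together. With the replicate block, 4 members were called with nApoE4, 6 with nApoE3 and 3 for the difference, and no other call of a member changed.

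Levels per kilobase moved by more than 1 SD in 9 of 56 cases. With the longest transcript as length, Slfn3 moved to 0.820 in ControlA, 0.875 with nApoE4, 0.911 in ControlB and 1.64 with nApoE3, and Slfn9 to 5.74 with nApoE4 and 16.4 with nApoE3. With library totals without TMM factors, Slfn9 moved to 4.91 in ControlA and 14.6 with nApoE3, and Slfn2 to 10.6 with nApoE3. Depth limits Slfn1 and Slfn8, whose control samples held at most 1 count.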
